A study of Mus musculus with 14 samples.

Results

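The Wnt ligands, their Frizzled receptors (Fzd) and 2 families of secreted antagonists, Sfrp and Dkk, were described in the mouse uterus at day 3.5 of gestation, shortly before implantation. They were chosen by name, as the probe sets whose only gene symbol in the platform annotation is Wnt, Fzd, Sfrp or Dkk with a number and an optional final letter. The rule found 73 probe sets of 45037, for 37 genes, of which 19 are ligands, 10 receptors, 4 Sfrp and 4 Dkk genes. Whole uteri were profiled on 14 Affymetrix arrays, 1 per sample, and the deposited values are linear MAS5 signals in arbitrary units. All females were C57BL/6. The groups were homozygous mutants of Folr4 (Folr4-/-) given folinic acid (n = 4), wild type given folinic acid (n = 3), Folr4-/- given saline (n = 3) and wild type given saline (n = 4). Folr4, now named Izumo1r, encodes the protein on the egg that binds sperm Izumo1. Folinic acid, a reduced folate, had been injected into the peritoneum at 12.5 mg/kg on 2 occasions, 10 and 3 days before mating, and the morning of the plug counted as day 0.5. The labels do not say what the mutation removes. They call the replicates biological, but titles share a number in 2 pairs of wild-type samples (saline replicates 2 and 3, folinic acid replicates 1 and 2), so p-values measure the spread between arrays, part of which may be technical.

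Wnt proteins are secreted lipid-modified signals that bind Frizzled receptors on nearby cells. With the co-receptors Lrp5 and Lrp6 they stabilise beta-catenin, which acts with TCF/LEF factors on target genes, and other Wnt signals run through planar cell polarity and calcium. Sfrp proteins carry a Frizzled-like domain and bind Wnts outside the cell, while Dkk1 and its close relatives block the Lrp co-receptors. In the mouse uterus Wnt7a is made by the luminal epithelium and is needed for gland formation, and Wnt4 is needed for the stroma to turn into decidua.

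Array medians ran from 130.0 to 157, and each array correlated with the remaining ones at a mean Spearman's rho of 0.932 to 0.953. The probe set of the mutated gene was dim, at 6.14 to 70.2 in the 7 mutant arrays and 13.5 to 72.4 in the 7 wild-type arrays, so it checks no label. Markers of uterine epithelium (11 of 12), stroma (11 of 11) and smooth muscle (8 of 8) and the receptors Esr1 and Pgr passed the filter on signal given below. Of the leukocyte markers 5 of 7 passed (not Cd3e and Cd79a), of the adipocyte markers 1 of 5 (not Plin1, Cfd, Lep and Cidec), and of the oviduct and ovary markers 3 of 5 (not Amh and Zp3). All 5 endothelial and 4 mesothelial markers passed. The actin 3-prime to 5-prime ratio ran from 1.54 in mutant folinic acid replicate 1 to 3.64 in wild-type saline replicate 3.

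Promoter windows of 300 bases, 250 before to 50 after a gene's start, were matched by symbol in RefSeq (GRCm38.p6) for 25 of the 37 genes. The windows of 4 genes are shown, picked for their values in the results below. Wnt11 and Wnt4 had the smallest p among the members after folinic acid in mutants, Wnt7a varied most between arrays, and Fzd1 formed the most closely related pair with Dkk3. Capitals mark the motifs searched on both strands. These were the TCF/LEF core CTTTGA, which reads TCAAAG from the opposite strand, the GC box GGGCGG, which then reads CCGCCC, the CCAAT box spelled CCAAT, the TATA box spelled TATAAA and the oestrogen response half-site AGGTCA. Matches that overlap are written as 1 run.
Wnt11, chr7:98834862-98835161, plus strand, the first of 2 windows: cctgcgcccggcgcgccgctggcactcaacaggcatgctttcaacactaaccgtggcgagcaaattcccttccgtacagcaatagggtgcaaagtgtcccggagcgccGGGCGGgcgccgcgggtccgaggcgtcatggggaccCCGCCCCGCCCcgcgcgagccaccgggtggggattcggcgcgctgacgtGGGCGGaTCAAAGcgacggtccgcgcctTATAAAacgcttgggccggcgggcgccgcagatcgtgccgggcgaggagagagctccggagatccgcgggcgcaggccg
Wnt4, chr4:137277385-137277684, plus strand: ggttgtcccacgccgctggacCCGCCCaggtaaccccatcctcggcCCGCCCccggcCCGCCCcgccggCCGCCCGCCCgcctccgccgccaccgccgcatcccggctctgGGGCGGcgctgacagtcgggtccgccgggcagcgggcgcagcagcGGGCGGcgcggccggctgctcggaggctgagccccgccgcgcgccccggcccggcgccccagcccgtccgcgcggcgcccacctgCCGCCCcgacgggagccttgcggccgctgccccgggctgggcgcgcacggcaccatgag
Wnt7a, chr6:91411304-91411603, minus strand: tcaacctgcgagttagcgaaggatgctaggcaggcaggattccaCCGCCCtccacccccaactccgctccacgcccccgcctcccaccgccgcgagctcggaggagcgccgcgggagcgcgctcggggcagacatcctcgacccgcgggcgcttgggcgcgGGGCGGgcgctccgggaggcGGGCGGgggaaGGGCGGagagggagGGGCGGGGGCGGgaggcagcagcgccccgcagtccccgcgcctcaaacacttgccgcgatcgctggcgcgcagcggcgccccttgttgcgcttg
Fzd1, chr5:4758167-4758466, minus strand: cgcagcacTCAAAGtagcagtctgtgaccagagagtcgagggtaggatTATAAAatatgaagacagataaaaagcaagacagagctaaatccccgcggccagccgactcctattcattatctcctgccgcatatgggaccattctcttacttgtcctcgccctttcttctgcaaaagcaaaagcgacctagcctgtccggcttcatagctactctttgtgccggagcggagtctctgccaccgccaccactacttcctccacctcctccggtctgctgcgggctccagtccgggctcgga
The Wnt11 window held TCAAAG starting 50 bases before the start site, TATAAA 29 bases before it and 4 GC boxes, and 71.3% of its bases were G or C. The Wnt4 window held 8 GC boxes and 84.3% G or C, and the Wnt7a window 6 GC boxes and 76.0%. In the Fzd1 window, at 54.0% G or C, TCAAAG lay 242 bases and TATAAA 202 bases before the start site. Of 32851 mouse windows of this length, 16% held the TCF/LEF core, 35.7% a GC box, 37.4% a CCAAT box, 13.6% a TATA box and 16.3% the oestrogen half-site. A match is a description of letters and not a binding site.

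No detection calls were used here, so a gene was taken as expressed when the mean log2 signal of its probe set over the 14 arrays reached the median over the table without its controls, which corresponds to a signal of 134.2. Each gene is given by its probe set with the highest mean. Of the 37 genes 22 reached it (59.5%), against 11269 of 18193 genes in the whole table (61.9%). The receptors passed in 9 of 10 cases, the ligands in 8 of 19, the Sfrp genes in 3 of 4 and the Dkk genes in 2 of 4. The 8 ligands were Wnt4, Wnt5a, Wnt5b, Wnt6, Wnt7a, Wnt7b, Wnt9a and Wnt11, and the 9 receptors were Fzd1 to Fzd8 and Fzd10. The antagonists that passed were Sfrp1, Sfrp2, Sfrp4, Dkk2 and Dkk3. Wnt1, Wnt2, Wnt2b, Wnt3, Wnt3a, Wnt8a, Wnt8b, Wnt9b, Wnt10a, Wnt10b, Wnt16, Fzd9, Sfrp5, Dkk1 and Dkk4 did not pass. The margin is narrow for Wnt6 and Fzd10, whose means were 135 and 147. Olfactory and vomeronasal receptor genes, which uterus is not known to use, gave a looser level at the low end: 95% of their 80 probe sets lay under a signal of 49.6, and Wnt10a (64.6), Sfrp5 (55.6) and Wnt16 (52.0) were the only members below the filter with a mean above it.

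**Figure D1:**
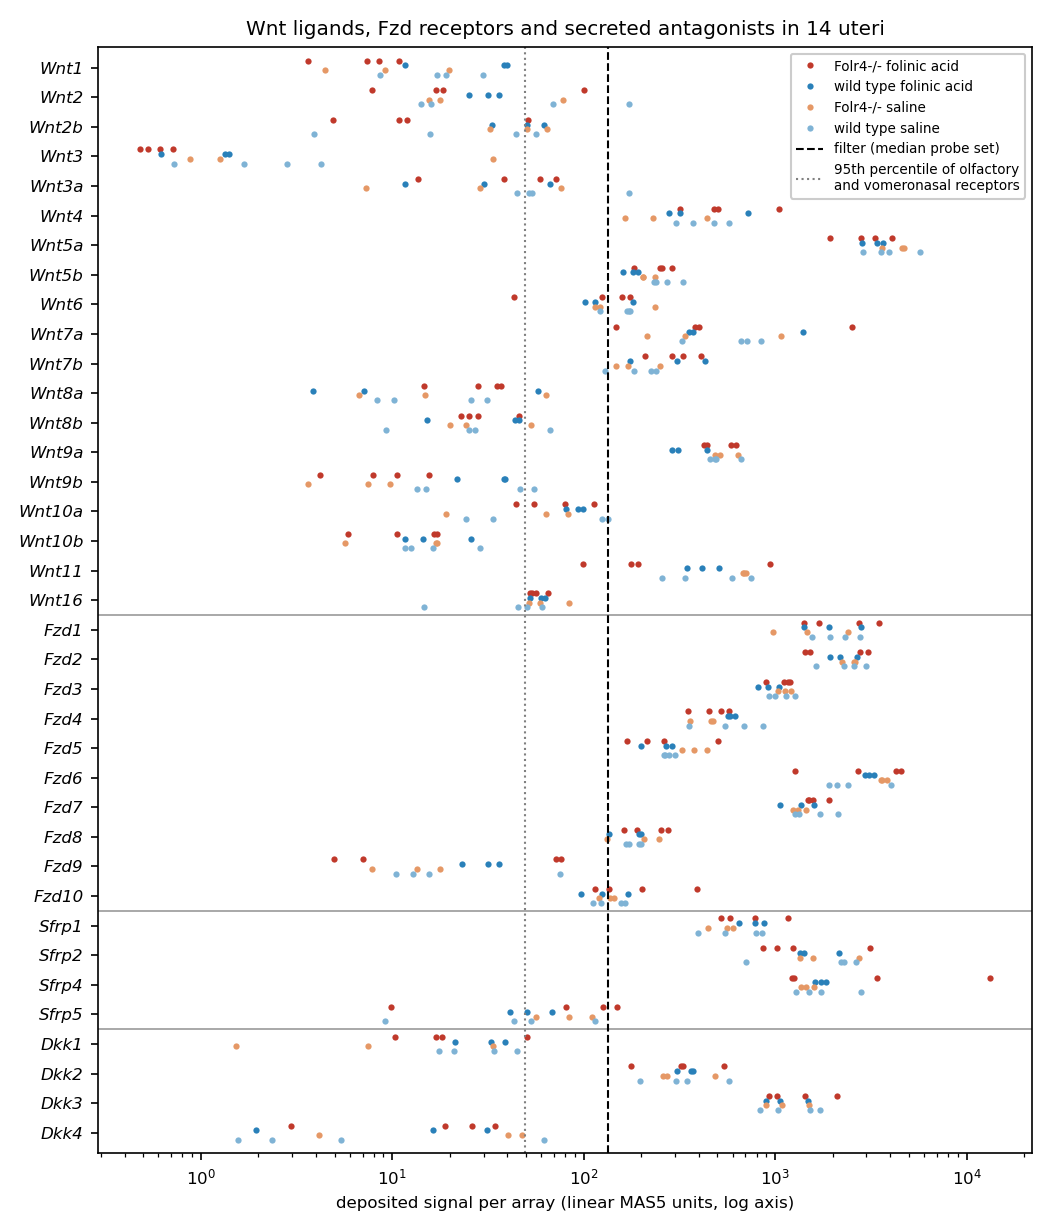
Signal of each member gene in each of the 14 arrays (log axis), 1 point per array, with ligands, receptors, Sfrp and Dkk genes in blocks. The dashed line is the filter at 134.2 and the dotted line the 95th percentile of olfactory and vomeronasal receptor probe sets at 49.6, and 22 of the 37 genes have a mean at or right of the dashed line. Probe sets differ in how strongly they bind, so signals show which genes were measured and are not compared between genes.

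Among the ligands, Wnt5a, a stromal ligand that signals mainly without beta-catenin, was bright in every array. Its probe set gave 1945, 4066, 2813 and 3325 in Folr4-/- uteri with folinic acid, 3643, 2849 and 3400 in wild type with folinic acid, 4626, 3627 and 4701 in Folr4-/- with saline, and 3557, 5747, 2890 and 3939 in wild type with saline. All 4 groups overlapped with at least 1 other, and the lowest array was mutant folinic acid replicate 1. Wnt7a gave 147, 381, 401 and 2519 in Folr4-/- with folinic acid, 373, 357 and 1393 in wild type with folinic acid, 338, 213 and 1073 in Folr4-/- with saline, and 849, 326, 661 and 712 in wild type with saline. In 3 of the 4 groups 1 array stood well above the rest, and its highest array was 17.1 times its lowest. A dimmer Wnt7a probe set, which did not show this pattern, is given with the relations between genes. Wnt9a, a ligand known from joint development, gave 424, 623, 586 and 440 in Folr4-/- with folinic acid, 443, 290 and 311 in wild type with folinic acid, 517, 640 and 486 in Folr4-/- with saline, and 490, 662, 457 and 485 in wild type with saline. The wild-type folinic acid arrays held the lowest 2 values and did not reach the wild-type saline range.

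Wnt4 gave 481, 317, 503 and 1053 in Folr4-/- with folinic acid, 317, 278 and 721 in wild type with folinic acid, 231, 164 and 442 in Folr4-/- with saline, and 480, 305, 575 and 372 in wild type with saline. Its groups overlapped throughout, with mutant folinic acid replicate 4 highest and mutant saline replicate 2 lowest. Wnt7b, an epithelial relative of Wnt7a, gave 330, 209, 290 and 410 in Folr4-/- with folinic acid, 174, 309 and 432 in wild type with folinic acid, 171, 148 and 251 in Folr4-/- with saline, and 129, 240, 183 and 225 in wild type with saline. Values of 290 or more occurred only in arrays of the folinic acid groups, and both of those groups still reached into the saline range. Wnt11, a ligand of the non-canonical kind that is also made by uterine epithelium, gave 99.3, 939, 193 and 177 in Folr4-/- with folinic acid, 415, 510 and 348 in wild type with folinic acid, 703, 685 and 682 in Folr4-/- with saline, and 257, 592, 752 and 339 in wild type with saline. The 3 mutant saline arrays were tightly grouped, and of the 4 mutant folinic acid arrays 3 lay below every other array while replicate 2 lay above every other array.

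Wnt5b, a close relative of Wnt5a, gave 251, 288, 258 and 184 in Folr4-/- with folinic acid, 160, 192 and 182 in wild type with folinic acid, 205, 203 and 235 in Folr4-/- with saline, and 240, 232, 329 and 272 in wild type with saline. The wild-type folinic acid arrays lay below all wild-type saline arrays. This probe set carries the suffix x, which in Affymetrix naming marks probes that can bind other transcripts, and the other Wnt5b probe set is given with the comparisons. Wnt6, known from uterine stroma and decidua, averaged 125 ± 58.4 (n = 4, SD) in Folr4-/- with folinic acid, 132 ± 42.8 (n = 3, SD) in wild type with folinic acid, 157 ± 68.0 (n = 3, SD) in Folr4-/- with saline and 160 ± 25.1 (n = 4, SD) in wild type with saline. Wnt16 stayed between 51.5 and 84.1 in 11 of the 14 arrays but gave 45.2, 50.3 and 14.7 in wild-type saline replicates 1 to 3. The other 10 ligands below the filter had no array above 172.

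Of the receptors, Fzd6, which acts in planar cell polarity together with Fzd3, gave 1268, 4519, 2705 and 4285 in Folr4-/- with folinic acid, 3083, 3284 and 2932 in wild type with folinic acid, 3840, 3621 and 3564 in Folr4-/- with saline, and 1919, 4016, 2414 and 2093 in wild type with saline. Mutant folinic acid replicates 1 and 2 were its lowest and highest arrays. Fzd2 gave 1436, 2778, 3073 and 1521 in Folr4-/- with folinic acid, 2686, 2180 and 1936 in wild type with folinic acid, 2617, 2581 and 2241 in Folr4-/- with saline, and 2589, 2992, 1645 and 2294 in wild type with saline, with every group overlapping the others. Fzd1, which forms a subfamily with Fzd2 and Fzd7, gave 3500, 1423, 2747 and 1686 in Folr4-/- with folinic acid, 2809, 1916 and 1409 in wild type with folinic acid, 980, 1472 and 2396 in Folr4-/- with saline, and 2327, 1937, 1565 and 2783 in wild type with saline. Its highest array was mutant folinic acid replicate 1 and its lowest was mutant saline replicate 1.

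Fzd4, which also binds the non-Wnt ligand norrin, gave 451, 524, 576 and 351 in Folr4-/- with folinic acid, 582, 566 and 616 in wild type with folinic acid, 463, 472 and 360 in Folr4-/- with saline, and 547, 688, 862 and 354 in wild type with saline. Its 7 mutant arrays stayed at or below 576, a level that 4 of the 7 wild-type arrays exceeded. Fzd7 gave 1501, 1910, 1482 and 1571 in Folr4-/- with folinic acid, 1359, 1589 and 1067 in wild type with folinic acid, 1242, 1319 and 1458 in Folr4-/- with saline, and 1723, 1268, 2127 and 1335 in wild type with saline. The 4 mutant folinic acid arrays lay above the 3 mutant saline arrays. Fzd5 averaged 287 ± 149 (n = 4, SD) in Folr4-/- with folinic acid, 252 ± 46.7 (n = 3, SD) in wild type with folinic acid, 381 ± 57.4 (n = 3, SD) in Folr4-/- with saline and 277 ± 17.2 (n = 4, SD) in wild type with saline. Fzd3 ranged from 816 to 1269 over all arrays, Fzd8 from 133 to 277 and Fzd10 from 97.2 to 389, the last in mutant folinic acid replicate 4. Fzd9 did not pass the filter and had no array above 76.0.

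Among the antagonists, Sfrp4 gave 13188, 1230, 3415 and 1251 in Folr4-/- with folinic acid, 1608, 1845 and 1728 in wild type with folinic acid, 1449, 1596 and 1360 in Folr4-/- with saline, and 1745, 1278, 1498 and 2820 in wild type with saline. Mutant folinic acid replicate 1 alone exceeded 3415, and the 2 lowest arrays were of the same group. Sfrp2 gave 1239, 867, 3131 and 1023 in Folr4-/- with folinic acid, 2160, 1411 and 1348 in wild type with folinic acid, 1352, 1584 and 2735 in Folr4-/- with saline, and 2279, 2217, 706 and 2633 in wild type with saline. Its lowest array was wild-type saline replicate 3, in a group whose other arrays were above 2200. Sfrp1 gave 1167, 785, 580 and 523 in Folr4-/- with folinic acid, 786, 871 and 646 in wild type with folinic acid, 446, 600 and 559 in Folr4-/- with saline, and 796, 396, 549 and 851 in wild type with saline. All 3 wild-type folinic acid arrays lay above all 3 mutant saline arrays, and both of these groups overlapped the others. That pair of groups was not a planned comparison, and the share of all probe sets without overlap in it was not computed. The next brightest Sfrp1 probe set did overlap, at 487 to 561 in wild type with folinic acid and 328 to 620 in Folr4-/- with saline. Sfrp5 ranged from 9.2 to 149 over the 14 arrays.

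Dkk3, a divergent Dkk protein that is not known to bind the Lrp co-receptors, gave 2107, 934, 1437 and 1020 in Folr4-/- with folinic acid, 1480, 1065 and 891 in wild type with folinic acid, 896, 1082 and 1506 in Folr4-/- with saline, and 1724, 1041, 831 and 1523 in wild type with saline. Dkk2 gave 329, 323, 176 and 541 in Folr4-/- with folinic acid, 372, 364 and 308 in wild type with folinic acid, 274, 260 and 484 in Folr4-/- with saline, and 345, 198, 574 and 303 in wild type with saline. For both genes the groups overlapped fully. Dkk1, the best known Lrp blocker, ranged from 1.52 to 50.4 and exceeded the olfactory receptor level of 49.6 in 1 array.

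The spread between arrays of the same group was wide for many members. The within-group standard deviation of the log2 signal had a median of 0.46 over the 22 expressed genes, against 0.29 over all 22519 probe sets that passed the filter, and 18 of the 22 lay above that median. It was 1.24 for Wnt7a, 0.93 for Sfrp4, 0.86 for Wnt11, 0.72 for Sfrp2 and 0.65 for Wnt4. Wnt5b (0.21) and Fzd3 (0.18) were among the steadier members. Against probe sets of similar mean signal 9 of the 22 genes lay above the 90th percentile of spread.

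**Figure D2:**
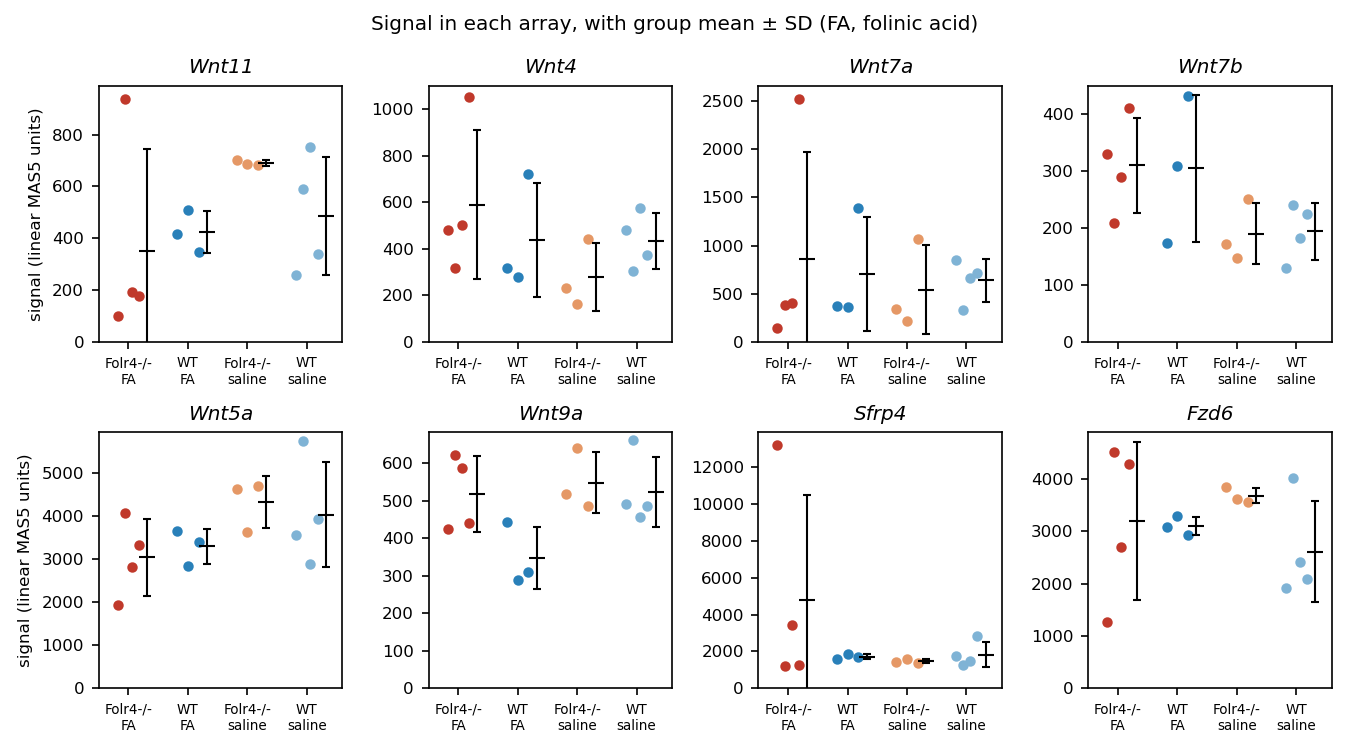
Signal of 8 genes in each array by group, with the group mean and SD at the right of each column (n = 4, 3, 3 and 4 from left to right), and lower SD bars that would pass 0 end at the axis. Wnt11 was between 682 and 703 in the 3 mutant saline arrays and between 99.3 and 939 in the 4 mutant folinic acid arrays, and Sfrp4 reached 13188 in 1 of them.

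Folinic acid in Folr4-/- uteri was set against saline in the same genotype, the comparison with the largest share of low unadjusted p-values in the table. No member passed the test. At an unadjusted p under 0.05 were 5 of the 13 ligand probe sets, for 4 genes since both Wnt4 probe sets are among them, and 1 of the 23 others, where 12.8% of all probe sets were. This split into ligands and others was not a planned count. The ligands moved in both directions, Wnt11 and Wnt5a lower and Wnt4 and Wnt7b higher. With limma on log2 signals, two-sided and with Benjamini-Hochberg adjustment over 22519 probe sets at a threshold of 0.05, 0 of 36 member probe sets passed, and 0.0% of all probe sets did. At an unadjusted p under 0.05 there were 6 members, 3 with positive and 3 with negative differences, or 16.7%, against 12.8% of all probe sets. Wnt11 had the smallest p, with a log2 difference of -1.54 ± 0.55 (SE, adjusted p = 0.28). Without mutant folinic acid replicate 2 its difference was -2.20 and passed with a limma adjusted p of 0.0164, and 666 probe sets of the whole table passed with it. Without replicate 1 it was -1.12.

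Wnt4 differed by 1.06 ± 0.42 (limma adjusted p = 0.319), and its other probe set gave 0.93 ± 0.43. Wnt5a differed by -0.55 ± 0.24 (adjusted p = 0.365), a value of -0.35 without mutant folinic acid replicate 1, while its other 3 probe sets gave -0.47, -0.21 and -0.13. Wnt7b differed by 0.70 ± 0.33 (adjusted p = 0.385). The Fzd6 probe set in the array values above gave -0.36 ± 0.35, and its other probe set gave -0.60 ± 0.27 (adjusted p = 0.373), with mutant folinic acid arrays at 245 to 365 and mutant saline arrays at 374 to 540. Sfrp4 differed by 0.98 ± 0.59 (adjusted p = 0.512), and by 0.25 without mutant folinic acid replicate 1. Wnt7a differed by 0.20 ± 0.78, and the sign turned without mutant folinic acid replicate 4 (-0.59) or mutant saline replicate 2 (-0.30). Fzd7 (0.27 ± 0.19) and the other Fzd6 probe set were the 2 of 36 members whose groups did not overlap, against 10.3% of all probe sets. The median log2 difference of the 36 members was -0.04, against 0.01 for all, and the median size 0.26, against 0.20.

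In the same comparison no marker of the stroma, epithelium or leukocyte lists passed the adjusted threshold. Of all probe sets 12.8% had an unadjusted p under 0.05 here, and 10.3% did not overlap between the groups. Marker sums add linear signals, so the brightest genes weigh most in them. Summed stroma markers were 138648 to 146615 in Folr4-/- with folinic acid, against 154052 to 185250 in Folr4-/- with saline, without overlap, and 4 of 11 had an unadjusted p under 0.05, all lower. Col3a1 had -0.63 ± 0.12 (limma adjusted p = 0.12) and Vim -0.49 ± 0.14 (adjusted p = 0.179). Epithelial sums were 27163 to 46777 against 42594 to 47803, with 5 of 11 genes positive, a median of -0.03 and 2 of 11 at an unadjusted p under 0.05, Krt19 (-0.77 ± 0.25) and Cldn3 (-1.24 ± 0.42). Leukocyte sums were 8761 to 40969 against 7349 to 13783, with 3 of 5 expressed genes at an unadjusted p under 0.05, all higher, among them Cd68 at 1.04 ± 0.44 and Csf1r at 0.79 ± 0.34. Mutant folinic acid replicate 1, which held the highest Sfrp4 and the lowest Wnt11, Wnt7a, Wnt6 and Fzd6 values, also had the highest leukocyte sum (40969) and the lowest epithelial sum (27163) of the 14 arrays. The part of cell makeup in the Wnt family differences was not tested, and in whole uterus fewer cells of a type cannot be told apart from less RNA per cell.

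**Figure D3:**
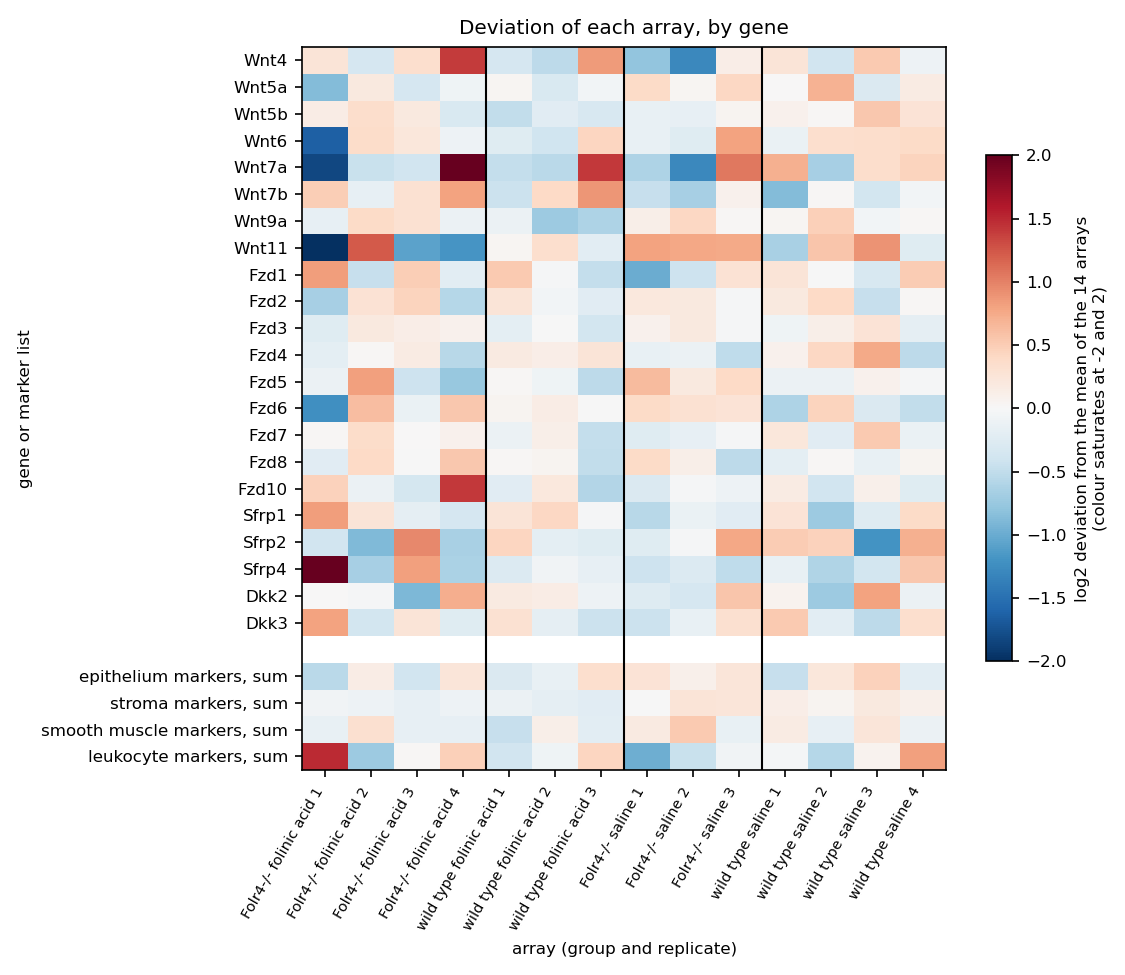
Log2 deviation of each array from the mean of the 14 arrays, for the 22 expressed genes and for the summed markers of 4 cell types, with arrays in columns by group. Mutant folinic acid replicate 1 deviates by more than 1 in 5 of the 22 genes and replicate 4 in 4, and replicate 1 has the darkest leukocyte cell.

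Folinic acid in wild-type uteri gave fewer low p-values. By limma 0 of 36 members passed, with 0.0% of all probe sets, and 2 had an unadjusted p under 0.05, against 2.71% of all. Wnt9a differed by -0.60 ± 0.21 and Wnt5b by -0.58 ± 0.20 (limma adjusted p = 0.999995 for both). They were the 2 members whose groups did not overlap, against 4.96% of all probe sets. The other Wnt5b probe set gave 0.38 ± 0.31, so the Wnt5b probe sets disagree in sign. Wnt7b differed by 0.60 ± 0.33, a value close to that in mutants, and by 0.30 without wild-type folinic acid replicate 3. Wnt11 differed by -0.08 ± 0.55, Wnt4 by -0.08 ± 0.42 and Sfrp4 by -0.02 ± 0.59. The summed stroma markers were again apart, at 131625 to 142516 with folinic acid and 160111 to 177526 with saline, and their part in the result was not tested.

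Under saline, Folr4-/- uteri were compared with wild type, which gives the difference between the genotype groups without injected folinic acid. No member passed in limma (0 of 36, against 0.00444% of all probe sets, which is the 1 probe set of Erdr1), and 1 had an unadjusted p under 0.05, against 3.11% of all. That member was the other Fzd6 probe set (0.61 ± 0.27), and the brighter Fzd6 probe set gave 0.56 ± 0.35. Fzd4 differed by -0.44 ± 0.25 and Wnt4 by -0.72 ± 0.42 (limma adjusted p = 0.999771 for both), but the other Fzd4 probe set gave 0.24 ± 0.23 and the other Wnt4 probe set -0.43 ± 0.43. Without mutant saline replicate 2 the Wnt4 difference was -0.40. Fzd5 (0.45 ± 0.29) was the 1 member of 36 whose groups did not overlap, at 327 to 441 in Folr4-/- and 264 to 301 in wild type, against 4.42% of all probe sets. The median member difference was -0.07, against -0.02 for all.

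Under folinic acid, Folr4-/- uteri were compared with wild type in the same way. Again 0 of 36 members passed in limma, against 0.00444% of all, and 2 had an unadjusted p under 0.05, against 3.81%. Wnt9a differed by 0.58 ± 0.21 and Wnt5b by 0.45 ± 0.20 (limma adjusted p = 0.999377 for both), while the other Wnt5b probe set gave -0.08 ± 0.31. Both comparisons in which these genes stand out share the 3 wild-type folinic acid arrays, where both were low. Replicates 1 and 2 of that group share a title number, so they may not be independent. They correlated at 0.97 on log2 signals of the probe sets above the filter. The other pair with a shared number, wild-type saline replicates 2 and 3, correlated at 0.931. The same measure is not given here for arrays without a shared number. Sfrp4 differed by 0.74 ± 0.59, and by 0.01 without mutant folinic acid replicate 1. Wnt11 differed by -0.82 ± 0.55, by -0.40 without mutant folinic acid replicate 1 and by -1.48 without replicate 2. No gene's main probe set was free of overlap here. The further probe sets of Fzd3 and Fzd6 were, 2 of 36 members against 4.94% of all.

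**Figure D4:**
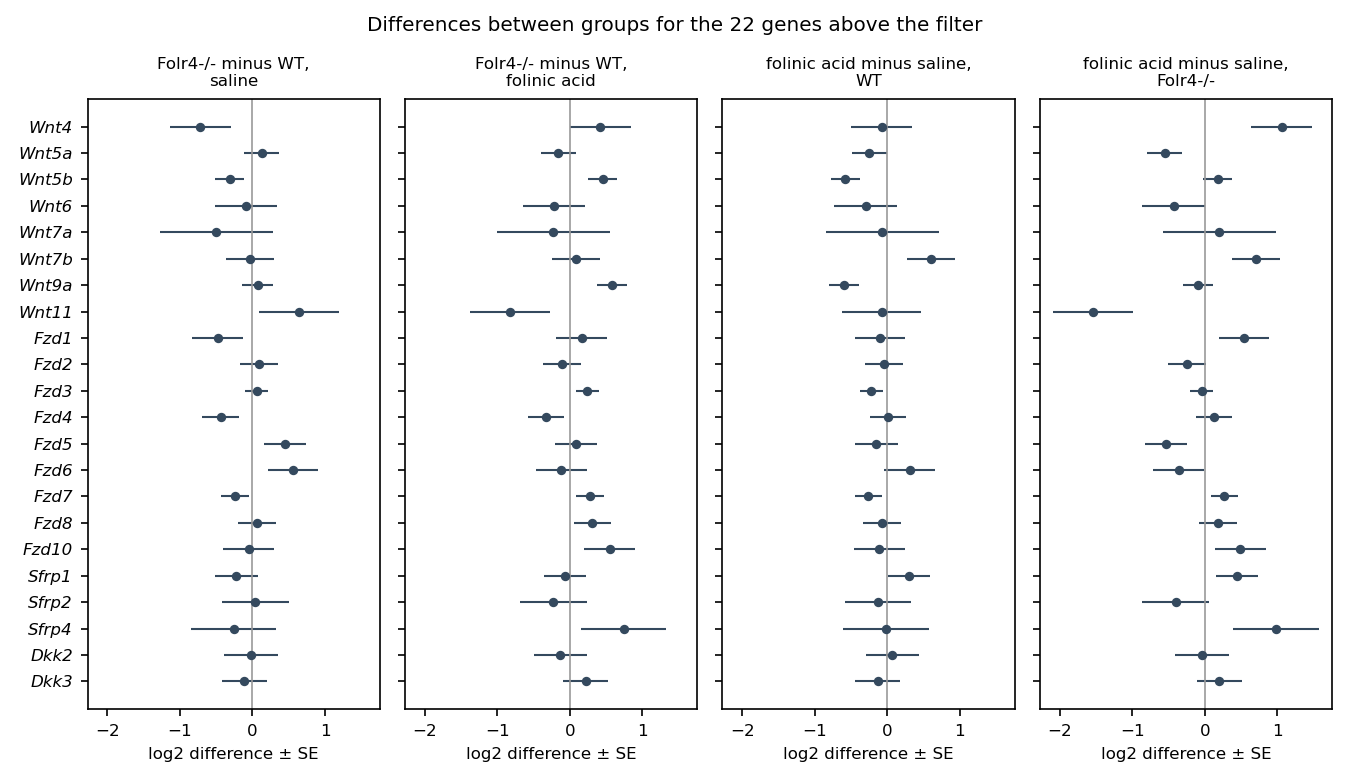
Log2 difference ± SE of the 22 expressed genes in the 4 pairwise comparisons, from the limma fit on all 14 arrays. No difference passed the adjusted threshold, and the Wnt11 difference of -1.54 and the Wnt4 difference of 1.06 in Folr4-/- uteri are the widest.

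The interaction asks whether folinic acid acted differently in the genotypes. By limma 0 of 36 members passed, with 0.0% of all, and 2 had an unadjusted p under 0.05, against 4.9%. Wnt5b had an interaction of 0.76 ± 0.28 on the log2 scale (adjusted p = 0.905), but its other probe set gave 0.01 ± 0.43. The other Fzd6 probe set gave -1.14 ± 0.39 and the brighter one -0.67 ± 0.49, which was -0.28 without mutant folinic acid replicate 1. Wnt4 had 1.13 ± 0.60, Wnt11 -1.45 ± 0.78 and Fzd7 0.52 ± 0.27 (adjusted p = 0.905 for all 3).

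Averaged over the injections, the genotype comparison passed for 0 of 36 members in limma, against 0.00444% of all, with 2 at an unadjusted p under 0.05, against 2.0%. They were Wnt9a (0.32 ± 0.15) and Fzd4 (-0.39 ± 0.18), each with an adjusted p of 0.999919 in limma, and the other Fzd4 probe set gave 0.09 ± 0.16. Averaged over genotypes, folinic acid likewise passed for 0 of 36 members, against 0.00444% of all, with 4 at an unadjusted p under 0.05, against 9.21%. Wnt7b had 0.65 ± 0.23 (limma adjusted p = 0.377), Wnt9a -0.34 ± 0.15 (adjusted p = 0.491) and Wnt5a -0.40 ± 0.17 (adjusted p = 0.494), and a further Wnt5a probe set had -0.32 ± 0.15. Wnt11 had -0.81 ± 0.39 and passed, at -1.14 with a limma adjusted p of 0.0496, only without mutant folinic acid replicate 2.

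The rest of the pathway was read from lists of known components. Porcn and Wls, which acylate and carry Wnts out of the cell, the co-receptor Lrp6 and beta-catenin itself (Ctnnb1) were all above the filter, while Lrp5 was below it. By limma no gene of any list passed in any of the 7 comparisons. For folinic acid in Folr4-/- uteri, where 12.8% of all probe sets had an unadjusted p under 0.05, the co-receptors and alternative receptors had 4 of 11 expressed members under it, 3 positive and 1 negative. Ror2, a receptor for Wnt5a, had 0.53 ± 0.20 (limma adjusted p = 0.29), at 636 to 1001 with folinic acid and 516 to 687 with saline. Gpc3, a membrane glypican, had -1.15 ± 0.38 (adjusted p = 0.249).

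Among the other secreted or membrane inhibitors 2 of 7 were under that unadjusted level, Frzb, a further secreted Frizzled-related protein, with 0.90 ± 0.31 and Igfbp4, which also binds insulin-like growth factors, with -0.44 ± 0.14 (limma adjusted p = 0.257 and 0.235). Of the cytoplasmic and nuclear components 3 of 24 were, with Btrc, which marks beta-catenin for destruction, at -0.47 ± 0.16 and Lef1, a partner of beta-catenin on DNA, at -1.04 ± 0.38 (adjusted p = 0.249 and 0.287). Lef1 gave 184, 357, 511 and 249 in Folr4-/- with folinic acid, against 631, 604 and 629 in Folr4-/- with saline, without overlap. These 2 groups did not overlap in 10.3% of all probe sets. The planar polarity and calcium branch had 2 of 19 (Camk2d 0.48 ± 0.16, Celsr1 -0.58 ± 0.24), the known target genes of beta-catenin 2 of 19 (Lef1 and Myc, with Myc at -0.77 ± 0.33), and release factors 0 of 5. Axin2, a direct target, gave 724, 670, 1063 and 1492 in Folr4-/- with folinic acid, against 815, 837 and 830 in Folr4-/- with saline, with the folinic acid arrays on both sides of the saline arrays. The medians of the 6 lists lay between -0.19 and 0.24 in this comparison, against 0.01 for all probe sets. Elsewhere Axin2 had -0.53 ± 0.22 for folinic acid in wild type and 0.50 ± 0.22 for Folr4-/- against wild type under folinic acid. Its interaction was 0.71 ± 0.31 (limma adjusted p = 0.999995, 0.999377 and 0.905 in that order). Ror2 had -0.44 ± 0.20, 0.72 ± 0.20 and 0.97 ± 0.28 in the same contrasts, with the same adjusted p-values.

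Relations between members across the 14 arrays were computed for all 231 pairs of the 22 genes, with two-sided permutation tests of 100000 draws. Each pair shares its arrays and their scaling. Dkk3 and Fzd1 followed each other most closely, with Pearson's r = 0.89 (permutation p = 6e-05, adjusted over the pairs 0.0139) and Spearman's rho = 0.84 (permutation p = 0.0003, adjusted 0.0246). The value was 0.93 on deviations from group means and 0.89 without the 2 arrays farthest from the median of Dkk3, so it held within groups. RNA quality differed along with this pair. The 5 arrays with the lowest 3-prime to 5-prime ratios of Gapdh (1.14 to 1.31) were the 5 highest for Dkk3 and 5 of the 6 highest for Fzd1, and the array with the highest ratio (2.48, wild-type saline replicate 3) was the lowest for Dkk3 but gave 843 with the other Dkk3 probe set, which ranged from 470 to 1089. The part of RNA quality in the relation was not tested. Dkk3 and Fzd1 were the 1 pair that passed by both measures.

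Fzd6 and Sfrp4 ran in opposite directions, with r = -0.82 (permutation p = 0.00104, adjusted 0.12) and rho = -0.85 (permutation p = 0.00032, adjusted 0.0246), and -0.74 without the 2 arrays farthest from the median. Fzd5 and Wnt11 had r = 0.71 (permutation p = 0.00465, adjusted 0.144) and rho = 0.85 (permutation p = 0.00027, adjusted 0.0246), and 0.58 without 2 arrays. Wnt4 and Wnt7a had r = 0.74 (permutation p = 0.00274, adjusted 0.144) and rho = 0.69 (permutation p = 0.00811, adjusted 0.263), neither past the adjustment, and 0.51 without 2 arrays. Sfrp4 and Wnt11 had r = -0.73 (permutation p = 0.00288, adjusted 0.144) and rho = -0.60 (permutation p = 0.0268, adjusted 0.297), but -0.30 without mutant folinic acid replicates 1 and 3, so that relation rests on those 2 arrays.

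Set against 80 other genes of the pathway lists, 1760 relations in all, none passed by Pearson's r after adjustment and 5 passed by Spearman's rho. Among the 5 were Sfrp1 with Tnfrsf19 (rho = -0.91, permutation p = 4e-05, adjusted 0.0352, and r = -0.85), Wnt5a with Vangl1 (rho = 0.89, permutation p = 0.00012, adjusted 0.0422, and r = 0.74) and Wnt7a with Lgr5. Wnt7a with Lgr5 had the smallest p by Pearson's r, and Lgr5 is a receptor for R-spondins that marks gland and stem cells in several epithelia. The pair had r = 0.88 (permutation p = 4e-05, adjusted 0.0594) and rho = 0.88 (permutation p = 6e-05, adjusted 0.0352), and 0.78 without 2 arrays. Lgr5 gave 153, 99.7, 252 and 857 in Folr4-/- with folinic acid, 170, 166 and 490 in wild type with folinic acid, 151, 95.2 and 745 in Folr4-/- with saline, and 330, 133, 339 and 185 in wild type with saline. Its high array in each of the first 3 groups was also the high Wnt7a array. These genes were picked for their values. A dimmer Wnt7a probe set, below the filter with a mean of 74.4, did not show this pattern. It gave 29.7 in mutant folinic acid replicate 4 and 53.3 in mutant saline replicate 3, each the lowest of its group. In wild-type folinic acid replicate 3 it gave 124, below the 130 of replicate 2.

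**Figure D5:**
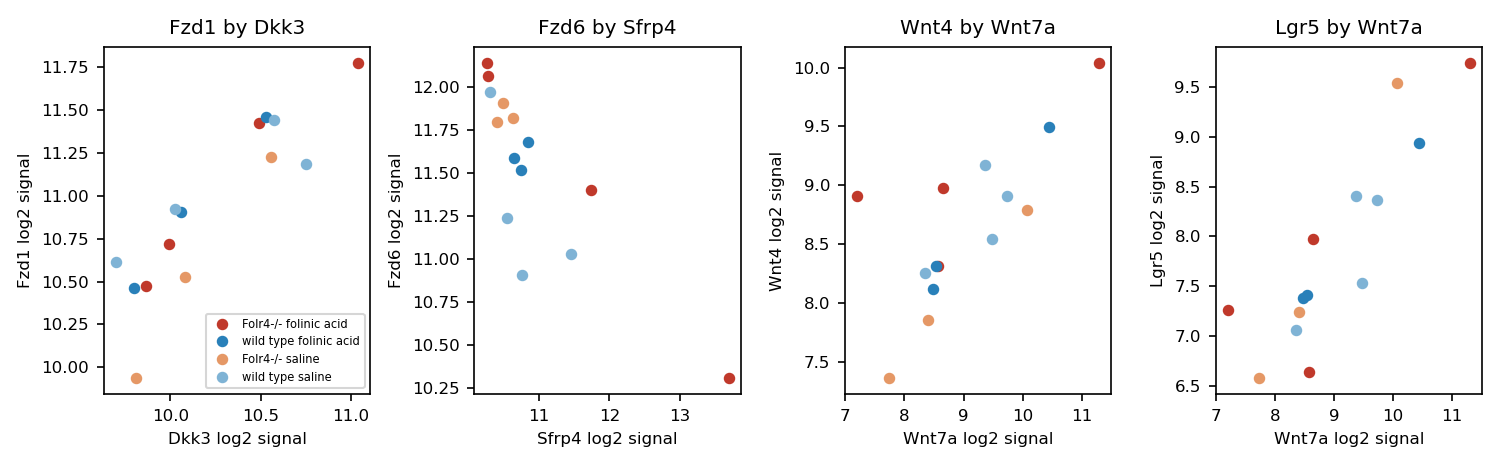
Log2 signal of 4 pairs of genes, 1 point per array, coloured by group. The points rise together for Dkk3 and Fzd1 (r = 0.89), Wnt7a and Wnt4 (r = 0.74) and Wnt7a and Lgr5 (r = 0.88), and run in opposite directions for Sfrp4 and Fzd6 (r = -0.82), where the array at the lower right is mutant folinic acid replicate 1.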

How the data were processed

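Total RNA of whole uterus was labelled with biotin and hybridised to Affymetrix mouse 430 2.0 arrays. The authors deposited 1 linear intensity signal per probe set, made with MAS5 per the submitters' processing notes, which give no version. Means trimmed by 2% at each end were 500.002 to 500.003, so the authors had scaled each array to a common level, and this scaling was kept. Of 45101 probe sets 64 controls were left out. Of the rest 34945 carried 1 symbol in GEO's platform annotation, 932 several and 9160 none, and all 37 member genes matched RefSeq by gene identifier. Signals below 1 were raised to 1 (0.505% of values) and put on the log2 scale. The 22519 probe sets at or above the median mean log2 signal were fitted with limma 3.58.1 in R 4.3.3, with 4 group means, a variance trend and 7 contrasts, which left 10 residual and gave 5.04 prior degrees of freedom. Errors of differences are standard errors of that fit. The procedure was tested on simulated data. The number of arrays limits the precision.

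The members and lists were chosen with earlier results of these data known. Genes named with all array values were the 3 genes of highest mean signal among ligands, receptors and antagonists, the 2 of smallest p in each comparison, and genes known from mouse uterine work. For pathway and marker lists the 2 genes of smallest p were named in the comparison of folinic acid with saline in mutants. Axin2, Lgr5 and the release and co-receptor genes were added after their values were seen, as were the further contrasts of Axin2 and Ror2. Other settings were quantile normalization, 16 added to each signal in place of the floor, all probe sets or the upper 35 percent in place of the filter, the brightest probe set of each gene alone, eBayes with no trend or with robust variances, weighted arrays, fits on only the groups compared, a replicate block, arrays with a shared title number averaged, and each array left out in turn.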

Additional observations from a re-analysis of the deposited data

Results flagged for a closer look

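In 22 expressed genes and the 2 groups of 4 arrays, 44 sets of values were examined for an array set apart from the rest of its group, with chance marking about 5% of them. Sfrp2 stood at 706 in wild-type saline replicate 3, against 2217 to 2633 in the other 3 arrays of the group. That array also had the highest 3-prime to 5-prime ratios of actin (3.64) and Gapdh (2.48), and the part of RNA quality was not tested. Wnt6 stood at 122 in wild-type saline replicate 1, against 169 to 175 in the others. These are 2 of 44 sets, which is no more than that share.

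The 22 expressed genes were examined for a genotype difference that turned between injections, and 2, Wnt5b and Fzd7, had one. For these every Folr4-/- array lay above the wild-type mean of log2 signals under folinic acid and below it under saline. The share of all probe sets with this pattern was not computed. The interaction of Wnt5b was 0.76 ± 0.28 on the log2 scale (limma, unadjusted p = 0.0173, adjusted p = 0.905), and that of Fzd7 was 0.52 ± 0.27 (limma, unadjusted p = 0.0705, adjusted p = 0.905). Neither passed the threshold. The other Wnt5b probe set did not turn, with mean log2 signals in Folr4-/- and wild type of 7.32 and 7.41 under folinic acid. Under saline they were 6.94 and 7.03.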

How the results depend on the processing

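Under 25 alternatives for each pairwise comparison and 24 for each of the other 3, no member passed limma's adjusted threshold, with 1 exception. Leaving out single arrays gave 0 to 1 members past it for folinic acid in mutants and 0 to 1 for folinic acid averaged over genotypes, and the 1 was Wnt11 without mutant folinic acid replicate 2 (log2 -2.20, adjusted p = 0.0164, and -1.14, adjusted p = 0.0496). Over all genes, 666 and 147 probe sets passed without that array, and 103 and 245 with array weights, against 0 and 1 with all arrays weighted alike. For the genotype comparisons the count over the whole table ran from 1 to 3. The difference of Wnt7a after folinic acid in mutants, 0.20, was -0.24 with a replicate block and -0.59 to 0.86 without single arrays. The cause was not tested. The fit on only the groups compared applies to the pairwise comparisons alone. The number of expressed genes was 22, and 16 with the stricter filter, 25 by the level of olfactory receptors, and 21 to 22 without single arrays. For arrays with the same replicate number in different groups, the 19 pairs had correlations of deviations from -0.34 to 0.35, and 6 of them exceeded 0.1. Their median was 0.01, against -0.02 for the 54 other pairs. Of the 14 arrays 8 correlated best with an array of their own number, a hint from the data and not from the design, and the samples were not treated as paired. With the replicate block 0 members passed in all 7 comparisons.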

Other observations

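Wnt9b, which lies below the filter and was picked for its values, gave 10.6, 15.6, 4.18 and 7.93 in Folr4-/- with folinic acid, 21.9, 38.8 and 38.5 in wild type with folinic acid, 3.62, 9.78 and 7.48 in Folr4-/- with saline, and 46.5, 13.5, 55.3 and 15.0 in wild type with saline. Within each injection all Folr4-/- arrays of this probe set lay below all wild-type arrays. Among probe sets above the filter, the genotypes did not overlap in 4.42% under saline and in 4.94% under folinic acid. The share without overlap under both, or among probe sets as dim as this one, was not computed. Mutant arrays with folinic acid reached into the wild-type saline range, and 13 of the 14 Wnt9b values lay under the level of 49.6 set by olfactory receptors. The other Wnt9b probe set gave 1.97 to 35.2 in Folr4-/- with folinic acid, 6.56 to 27.3 in wild type with folinic acid, 4.44 to 51.6 in Folr4-/- with saline and 3.23 to 39.3 in wild type with saline, and there the groups overlap. With no filter on signal limma passed 0 of 73 members in every comparison.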
